A study of Mus musculus with 23 samples.

Results

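Transcripts of cytotoxic lymphocytes were followed in ileal RNA of male mice on 1-colour Agilent arrays, each mouse having its own array. The 10 genes were the granzymes Gzma, Gzmb and Gzmk, the granule genes Prf1 and Nkg7, the chemokine gene Ccl5, the IL-18 binding protein gene Il18bp, the CD8 chains Cd8a and Cd8b1 and the transcription factor gene Eomes. They were chosen as a list of names, with their higher values in Pxr-/- than in WT mice already known, out of 24813 gene names on the array. The array carries 14 probes for them among 56605 probes, and 13 of these were among the 37161 probes of the deposited log2 table. The missing one was the Eomes probe A_66_P137763, which was not well above background on any array.

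The 4 groups were WT CONT (6 arrays), WT PCN (5), Pxr-/- CONT (6) and Pxr-/- PCN (6). PCN is pregnenolone 16α-carbonitrile, a steroid that activates the rodent pregnane X receptor (PXR, gene Nr1i2), which the Pxr-/- mice lack. Dosing was intraperitoneal, 100 mg/kg a day over 4 days, with corn oil as the vehicle and, for CONT, as the sole injection. The ileum represents ZT6, and the interval between the final dose and sampling was 6 h. WT mice were C57BL/6J animals bought at 6 weeks of age, and the Pxr-/- mice had been bred in the authors' own facility for 10 years, so that genotype and breeding origin cannot be told apart in any comparison between genotypes. The arrays were washed in 2 batches, the first with 3, 2, 3 and 3 arrays of these groups and the second with 3 of each.

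Cytotoxic T cells and natural killer (NK) cells store granzymes, which are serine proteases, in granules together with perforin, and release them onto a target cell. The epithelium of the small intestine harbours many such cells as intraepithelial lymphocytes, most of which carry CD8. Interferon-γ made by these cells induces the IL-18 binding protein, a secreted protein that captures IL-18 and so limits the signal that drives interferon-γ production. In whole tissue, fewer cells of a type and less RNA per cell cannot be told apart.

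The 6 epithelial genes Vil1, Epcam, Fabp2, Fabp6, Slc10a2 and Lgals4 were well above background on all 23 arrays, and between 60.9% and 67.3% of the probes were on each array. The single probe for Nr1i2 had a mean log2 value of 12.14 ± 0.16 (SD, n = 6) for WT CONT and 12.17 ± 0.30 (n = 5) for WT PCN, against 11.73 ± 0.36 for Pxr-/- CONT and 11.71 ± 0.18 for Pxr-/- PCN (n = 6 each). Its ranges overlapped between the genotypes, and whether the probe lies in the deleted part was not analysed, so it does not check the genotype labels. 1 array stood apart for the genes described here. Replicate 5 of Pxr-/- PCN, of wash batch 2, lay below the other 5 arrays of its group on 12 of the 13 probes (92.3%), as it did on 21.3% of all probes, with a median difference from the mean of those 5 of -1.29 on the log2 scale against -0.00 over all probes. The main results that it moves are also given without it.

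For each gene with 2 measured probes, 1 probe is shown, because in these genes a transcript was measured at 2 separate places. The bases are those of the array design on build mm9, 5′ to 3′ on the strand of the gene, and the probes are 60 bases long.
Gzmk A_51_P166556, chr13:113962100-113962159, minus strand: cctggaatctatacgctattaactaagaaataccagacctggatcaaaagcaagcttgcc
Il18bp A_52_P577386, chr7:109164573-109164632, minus strand: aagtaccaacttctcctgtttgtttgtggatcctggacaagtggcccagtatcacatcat
Cd8a A_52_P150547, chr6:71323885-71323944, plus strand: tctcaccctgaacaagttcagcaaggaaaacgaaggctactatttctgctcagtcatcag
The other Gzmk probe lay 224 bases away, the other Il18bp probe 413 bases and the other Cd8a probe 4966 bases. Probes of different genes shared no run longer than 9 of 60 bases, the longest being between Gzma and Gzmk, whose nearest probes lie 77721 bases apart on chromosome 13. The Cd8b1 and Cd8a probes lie 36888 bases apart on chromosome 6. Exon and UTR positions of the probes were not analysed here.

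**Figure D1:**
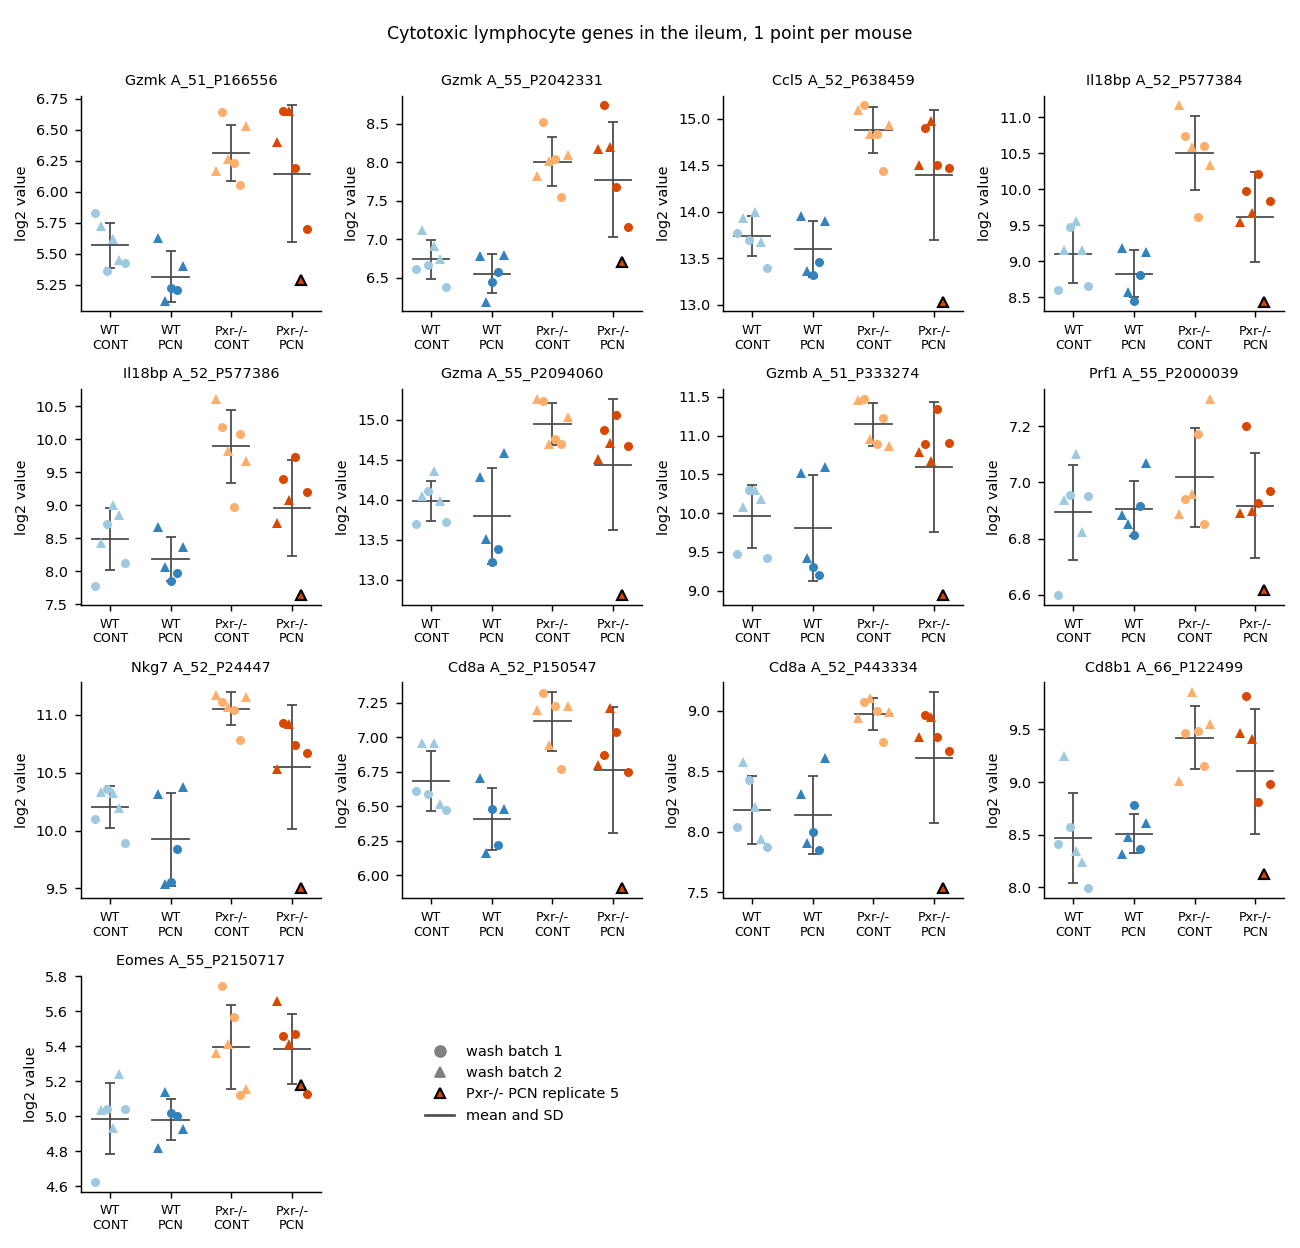
The log2 value of each probe (vertical axis, a scale of its own in each panel) is plotted for each mouse, with circles for wash batch 1 and triangles for wash batch 2, and a line and bar for the mean and SD of a group. In WT CONT and Pxr-/- CONT the Ccl5 values ran from 13.39 to 13.99 and from 14.44 to 15.14, and the outlined triangle, Pxr-/- PCN replicate 5, is the lowest of its group in 12 of the 13 panels.

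Gzmk encodes granzyme K, a trypsin-like protease found mainly in memory and effector T cells. On its brighter probe, A_55_P2042331, WT CONT ranged from 6.37 over a median of 6.70 to 7.11 (log2). WT PCN arrays read 6.78, 6.19, 6.44, 6.57 and 6.79. Pxr-/- CONT ranged from 7.55 (median 8.03) to 8.52 and Pxr-/- PCN from 6.70 (median 7.92) to 8.74. Without PCN every Pxr-/- array was above every WT array, while with PCN the lowest Pxr-/- array, replicate 5, fell among the WT values. The difference between the genotypes was 1.27 (SE 0.246, 2.41-fold) without PCN and 1.23 (SE 0.258, 2.34-fold) with PCN, and 1.47 with PCN when replicate 5 was left out. The order of the group means was Pxr-/- CONT (8.01 ± 0.32, SD, n = 6), Pxr-/- PCN (7.77 ± 0.75, n = 6), WT CONT (6.74 ± 0.26, n = 6) and WT PCN (6.55 ± 0.25, n = 5). Each neighbouring pair in that order overlapped, Pxr-/- PCN and WT CONT only through replicate 5.

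The dimmer Gzmk probe, A_51_P166556, whose sequence is given above, gave the same order at a lower brightness. It read 5.36 to 5.82 in WT CONT and 6.05 to 6.64 in Pxr-/- CONT, again without overlap, a difference of 0.75 (1.68-fold). In WT PCN it was not well above background on any of the 5 arrays (5.63, 5.12, 5.22, 5.21 and 5.40), so that its level there is only a bound. That bound was taken on each array as the higher of the probe's own value and the lowest value well above background. Against it, the mean of the Pxr-/- PCN arrays (5.29 to 6.65, measured on 5 of 6) was 1.74-fold higher. The mean includes replicate 5, which was not well above background, so the fold is not a strict lower limit. Deviations of both Gzmk probes from their group and wash batch means had a Pearson correlation of 0.908 over the 23 arrays, and 0.843 without Pxr-/- PCN replicate 5.

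Ccl5, also called RANTES, is a chemokine that effector T and NK cells store and secrete and that draws in other leukocytes. Its values ran from 13.39 (median 13.73) to 13.99 in WT CONT and were 13.95, 13.36, 13.32, 13.46 and 13.90 in WT PCN. They ran from 14.44 (median 14.88) to 15.14 in Pxr-/- CONT and from 13.03 (median 14.50) to 14.97 in Pxr-/- PCN. All Pxr-/- CONT arrays therefore exceeded all WT arrays of either treatment, and 5 of the 6 Pxr-/- PCN arrays did so too. The difference was 1.14 (SE 0.229, 2.20-fold) without PCN and 0.80 (SE 0.241, 1.74-fold) with PCN. With PCN it was 1.23 within wash batch 1 and 0.43 within wash batch 2, which holds replicate 5, and 1.11 without that array.

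Il18bp encodes the decoy that binds IL-18. Probe A_52_P577384 read from 8.60 (median 9.16) to 9.55 in WT CONT, and 9.19, 8.57, 8.45, 8.81 and 9.13 in WT PCN. In Pxr-/- CONT it read from 9.61 (median 10.59) to 11.16 and in Pxr-/- PCN from 8.44 (median 9.75) to 10.22. Pxr-/- CONT was thus the highest group, above all WT CONT arrays by a narrow margin, and Pxr-/- PCN lay between it and the WT groups. The difference between the genotypes was 1.40 (SE 0.263, 2.65-fold) without PCN, the widest of the 13 probes together with that of the other Il18bp probe, and 0.79 (SE 0.276, 1.73-fold) with PCN. Probe A_52_P577386 gave 1.40 (SE 0.296) and 0.78 (SE 0.311), and 1 array of each untreated genotype overlapped, where the lowest Pxr-/- CONT array read 8.98 and the highest WT CONT array 9.01. With PCN the differences of both probes were 1.38 and 1.52 within wash batch 1 but 0.25 and 0.11 within wash batch 2, and 1.06 and 1.08 without replicate 5. Il18bp probes deviated together, with a correlation of 0.968 over the 23 arrays (0.946 without replicate 5).

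The granule proteases Gzma and Gzmb are, respectively, a trypsin-like granzyme and the caspase-activating granzyme that cleaves after aspartate. In WT CONT, Gzma ran from 13.70 (median 14.02) to 14.36, and in Pxr-/- CONT from 14.70 (median 14.90) to 15.26. Gzmb ran from 9.42 (median 10.13) to 10.30 and from 10.86 (median 11.10) to 11.48 in the same groups. Neither gene overlapped between the untreated genotypes, which differed by 0.96 (SE 0.290, 1.95-fold) for Gzma and 1.19 (SE 0.318, 2.28-fold) for Gzmb. With PCN both spread widely. WT PCN arrays read 14.29, 13.51, 13.22, 13.39 and 14.58 for Gzma and 10.51, 9.42, 9.31, 9.19 and 10.59 for Gzmb, so that replicates 1 and 5 stood above the other 3. Pxr-/- PCN ranged from 12.81 (median 14.69) to 15.07 for Gzma and from 8.94 (median 10.85) to 11.34 for Gzmb. The differences with PCN, 0.65 and 0.79, were 1.57 and 1.80 within wash batch 1 but -0.11 and -0.04 within wash batch 2, and 1.02 and 1.16 without replicate 5. Wash batch 1 holds only replicates 3 and 4 of WT PCN, both among the lower arrays.

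Nkg7, a membrane protein of cytotoxic granules that supports their release, lay between 9.89 and 10.36 (median 10.26) in WT CONT and between 10.79 and 11.17 (median 11.09) in Pxr-/- CONT. The treated arrays read 10.32, 9.54, 9.56, 9.84 and 10.37 in WT PCN and from 9.50 (median 10.70) to 10.93 in Pxr-/- PCN. Only the untreated genotypes were free of overlap, with a difference of 0.85 (SE 0.192, 1.81-fold) against 0.63 (SE 0.202, 1.55-fold) with PCN, or 0.87 without replicate 5. Prf1, the pore-forming perforin, stood apart from the other granule genes among the members. Its group means lay between 6.89 and 7.02 with SDs of 0.0978 to 0.187, and the genotypes differed by 0.12 (SE 0.0966) without PCN and by 0.01 (SE 0.102) with PCN. Among 15 granule and effector genes outside the members, the differences without PCN ran from -0.14 to 1.09, so low values were not particular to Prf1.

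CD8 is the co-receptor that binds MHC class I, as a dimer of 2 α chains or of an α and a β chain. For Cd8a probe A_52_P443334, WT CONT ranged from 7.88 (median 8.12) to 8.58 and Pxr-/- CONT from 8.74 (median 8.99) to 9.10, without overlap. The difference was 0.80 (SE 0.192, 1.74-fold) without PCN and 0.48 (SE 0.202) with PCN, where it was 0.88 within wash batch 1, 0.14 within wash batch 2 and 0.72 without replicate 5. Cd8a probe A_52_P150547 gave smaller differences, 0.43 (SE 0.164) and 0.36 (SE 0.173), and its groups overlapped. With PCN the latter was 0.54 within wash batch 1, 0.19 within wash batch 2 and 0.55 without replicate 5. Deviations of the Cd8a probes correlated at 0.825 over the 23 arrays and at 0.557 without replicate 5. Cd8b1, the β chain, read 7.99 to 9.25 in WT CONT and 9.01 to 9.85 in Pxr-/- CONT, where 1 high WT array overlapped, and differed by 0.95 (SE 0.226, 1.93-fold) without PCN and 0.59 (SE 0.238, 1.51-fold) with PCN, or 0.81 without replicate 5. Eomes, a T-box factor of cytotoxic and NK cells, was dim on probe A_55_P2150717, well above background on 2 of 6 Pxr-/- CONT arrays, 4 of 6 Pxr-/- PCN arrays and no WT array. Against a bound for WT taken as for the dimmer Gzmk probe, the Eomes mean of the Pxr-/- arrays was 1.18-fold higher without PCN and 1.10-fold higher with PCN. These means include Pxr-/- arrays not well above background, so the folds are not lower limits.

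Over the 13 probes, the difference between the genotypes was positive for all 13 without PCN (median 0.95, range 0.12 to 1.40) and for all 13 with PCN (median 0.65, range 0.01 to 1.23), where 51.1% and 50.9% of all probes were higher in Pxr-/- mice, with medians near 0 (0.00 and 0.00). At the limits used for calls, a limma adjusted p of at most 0.05 and more than 1.5-fold, 4 probes were higher without PCN (both Il18bp probes, Ccl5 and the brighter Gzmk probe), beside 0.0404% of all probes called higher. With PCN these were the 2 Gzmk probes, which are of 1 gene, beside 0.0619%. The dimmer Gzmk probe was not well above background on any WT PCN array, so its call there compares with a bound only. Eomes, counted among the 13, was not well above background on any WT array. The arrays of both genotypes did not overlap for 8 of 13 probes without PCN, beside 0.552% of all probes, and for 0 of 13 with PCN, beside 0.334%. The genes were chosen on these comparisons, so the counts are a description and no p is given. They also moved with single arrays. Left out in turn, arrays gave 0 to 10 probes without PCN. The count was 0 without Pxr-/- CONT replicate 1, 2 or 3 or WT CONT replicate 1 or 6, 1 without Pxr-/- CONT replicate 6 or WT CONT replicate 3 or 5, and 10 without Pxr-/- PCN replicate 5, whose removal also lowered the SE of differences (for the averaged PCN effect on Ccl5 from 0.166 to 0.0936). With PCN the count was 0 without Pxr-/- PCN replicate 1 or 3 or WT PCN replicate 2, 3 or 4, and 8 without Pxr-/- PCN replicate 5. It was 2 without Pxr-/- CONT replicate 2, Pxr-/- PCN replicate 6, WT CONT replicate 1 or WT PCN replicate 1, and 1 without any other array. With Pxr-/- PCN replicate 5 left out, 113 of all 37161 probes were called in either direction without PCN, and 190 with PCN.

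**Figure D2:**
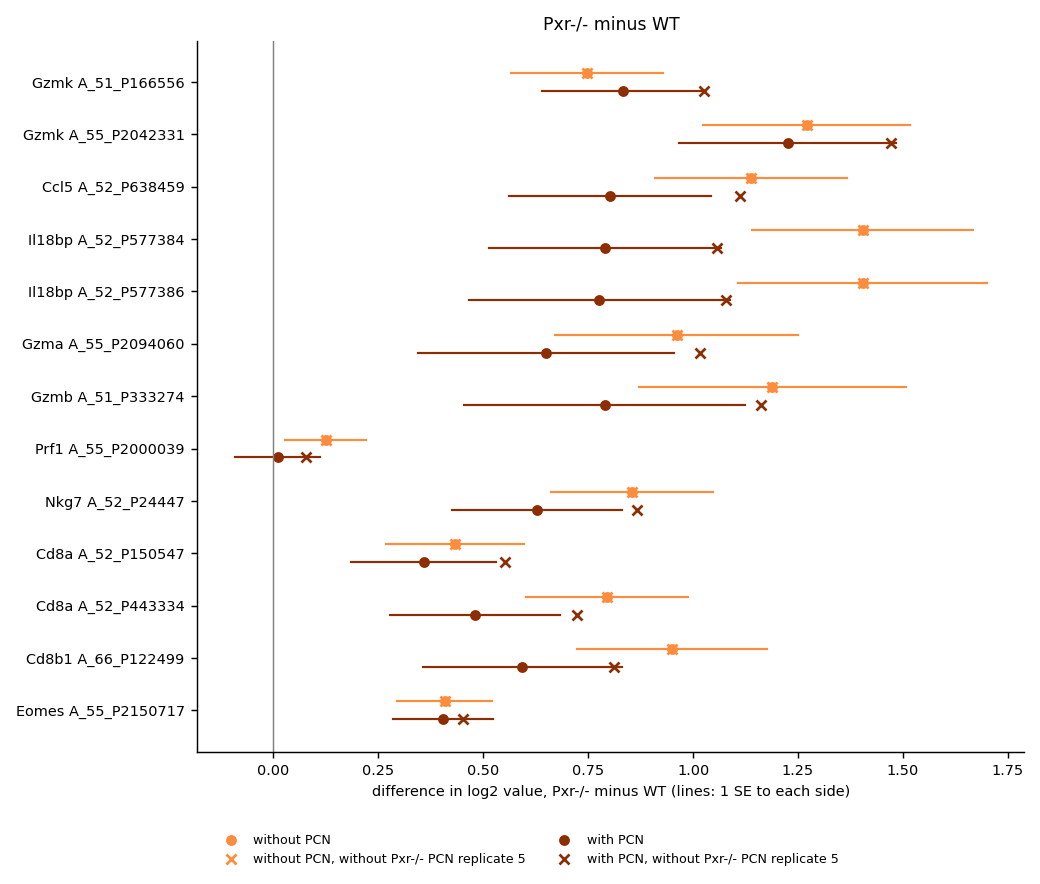
The horizontal axis gives the difference in log2 value, Pxr-/- minus WT, for each of the 13 probes without PCN (light) and with PCN (dark), with lines of 1 SE to each side and crosses for the same difference without Pxr-/- PCN replicate 5. All points lie at or above 0, from 0.01 to 1.40, and the crosses of the comparison with PCN lie to the right of its points.

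The effect of PCN on these genes asked whether the ligand moved them, and whether it did so with and without its receptor. In a balanced fit, the PCN effect averaged over WT and Pxr-/- mice is uncorrelated with both differences between the genotypes. Here WT PCN had 5 arrays and the other groups 6, and the spread differed between groups, so some correlation can remain. In this average all 13 probes were lower with PCN (median -0.31, range -0.62 to -0.01), where 53.8% of all probes were lower and their median was -0.01. Without Pxr-/- PCN replicate 5, 12 were lower and the median was -0.18. Eomes, at -0.01, was not well above background on any WT array, so its direction in WT mice cannot be read. None of the 13 passed the limits for a call, beside 0.939% of all probes, and the limma adjusted p ran from 0.0569 to 0.969. At an unadjusted p under 0.05 there were 4 of 13 (both Il18bp probes, Nkg7 and Cd8a A_52_P150547), beside 24.2% of all probes.

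Il18bp had the lowest p-values. Probe A_52_P577384 was lower by 0.59 with PCN averaged over the genotypes (-0.59, SE 0.191, 95% confidence interval -0.98 to -0.19, limma adjusted p 0.0569), and A_52_P577386 had a difference of -0.62 (SE 0.215, adjusted p 0.0758). Neither passed the threshold of 0.05. They were -0.30 and -0.30 within wash batch 1 and -0.90 and -0.97 within wash batch 2, and without Pxr-/- PCN replicate 5 they were -0.47 and -0.48 (adjusted p 0.0697 and 0.0977). The call turned on single arrays. Without Pxr-/- CONT replicate 4 the limma adjusted p was 0.0207 and 0.0336, without Pxr-/- PCN replicate 4 it was 0.0324 and 0.0368, and without WT CONT replicate 1 it was 0.0476 for A_52_P577384.

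Nkg7 differed by -0.39 (SE 0.140, limma adjusted p 0.0815), -0.31 within wash batch 1 and -0.51 within wash batch 2, and by -0.29 (adjusted p 0.0645) without replicate 5. For Cd8a A_52_P150547 the value was -0.31 (adjusted p 0.103 in limma). None of these probes passed the threshold. The other members had averaged differences of -0.36 to -0.01, with limma adjusted p of 0.250 for Ccl5, 0.320 for Gzma, 0.366 for Gzmb, 0.345 and 0.508 for the Gzmk probes, 0.394 for Cd8a A_52_P443334, 0.655 for Cd8b1, 0.755 for Prf1 and 0.969 for Eomes. Without replicate 5 the averaged differences were -0.18 for Ccl5, -0.19 for Gzma, -0.19 for Gzmb, -0.12 and -0.10 for the Gzmk probes, -0.23 for Cd8a A_52_P150547, -0.09 for Cd8a A_52_P443334 and -0.04 for Cd8b1. For Ccl5 the 95% confidence interval over all arrays of the averaged effect ran from -0.66 to 0.03, and for the brighter Gzmk probe from -0.58 to 0.16.

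**Figure D3:**
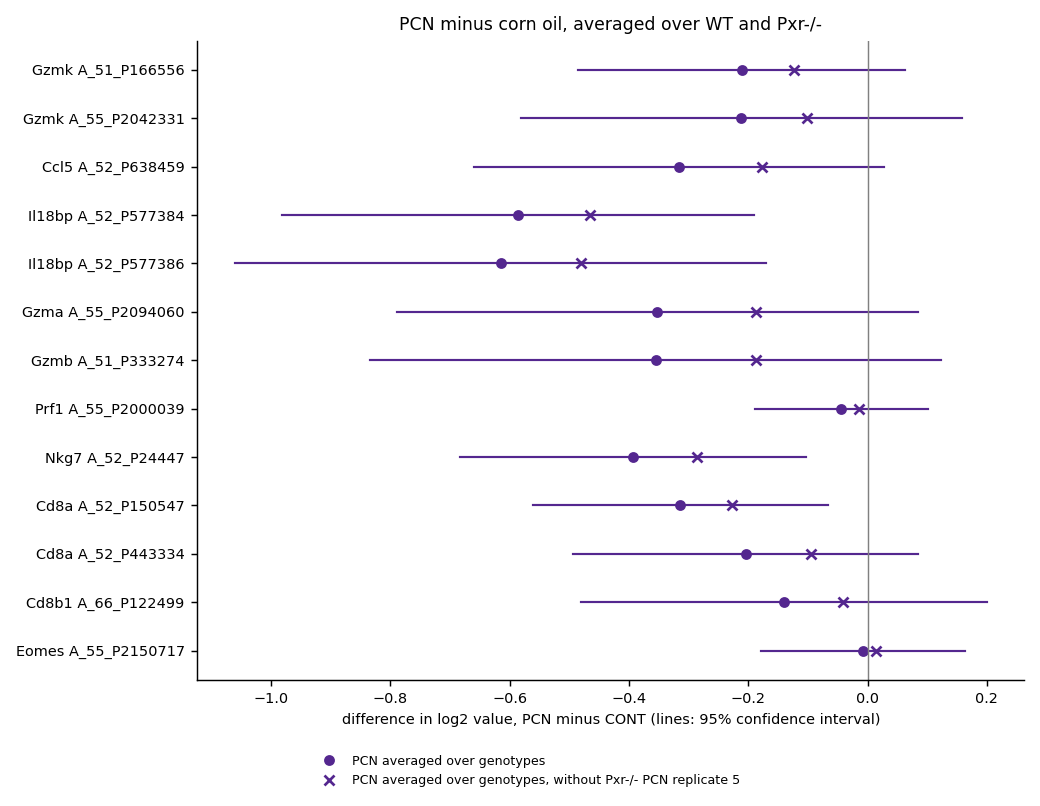
The horizontal axis gives the log2 difference PCN minus CONT, averaged over WT and Pxr-/- mice, for each of the 13 probes, with lines for the 95% confidence interval and crosses for the value without Pxr-/- PCN replicate 5. All 13 points lie below 0, the lowest being Il18bp at -0.62 and -0.59, and each cross lies to the right of its point.

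Within each genotype the arrays are shared with the comparisons used to choose the genes. Choosing genes for high values in Pxr-/- CONT can by itself favour lower values with PCN in Pxr-/- mice. The counts and p-values within a genotype are therefore a description. In WT mice 11 of 13 probes were lower with PCN (median -0.19, 54.9% of all probes lower), with 0 called by limma (adjusted p 0.573 to 0.995), beside 0.692% of all probes, and 0 at an unadjusted p under 0.05, beside 11.8%. The 11 include Eomes and the dimmer Gzmk probe, which were not well above background on any WT PCN array and whose direction in WT mice cannot be read. In Pxr-/- mice all 13 were lower (median -0.36, 53.0% of all probes lower), again with 0 called (adjusted p 0.0579 to 0.976), beside 0.947%. There 5 had an unadjusted p under 0.05 (both Il18bp probes, Nkg7, Ccl5 and Cd8a A_52_P150547), beside 19.6%. Il18bp in Pxr-/- mice differed by -0.89 (SE 0.263, limma adjusted p 0.0579) and -0.93 (SE 0.296, adjusted p 0.0786). These were -0.31 and -0.31 within wash batch 1, -1.47 and -1.55 within wash batch 2, and -0.64 and -0.64 (adjusted p 0.141 and 0.191) without replicate 5. Without Pxr-/- CONT replicate 4 the limma adjusted p was 0.0221 and 0.0358, and without Pxr-/- PCN replicate 4 it was 0.0331 and 0.0384. Without replicate 5, the median of the 13 probes in Pxr-/- mice was -0.16 and 11 were lower.

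Whether the PCN effect differed between the genotypes was examined by the interaction, the effect in Pxr-/- mice minus that in WT mice. This equals the genotype difference with PCN minus that without PCN, the comparisons on which the genes were chosen. Choosing genes for high values in Pxr-/- CONT can by itself favour negative values, so the interaction is given as a description. For Il18bp it was -0.61 (SE 0.381, 95% confidence interval -1.41 to 0.18) and -0.63 (SE 0.430), each with a limma adjusted p of 1.00. No member was called, beside 0.078% of all probes, and none had an unadjusted p under 0.05, beside 4.52%. The median interaction of the 13 probes was -0.31, and -0.03 without Pxr-/- PCN replicate 5. The interval for Il18bp holds 0 as well as differences larger than the averaged effect.

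Members varied together from mouse to mouse. After removing the means of group and wash batch, the 75 pairs of probes of different members had a median Pearson correlation of 0.592 (0.116 to 0.949) over 23 arrays, all probes of an array sharing 1 RNA sample, and 0.307 (-0.359 to 0.887) over 22 arrays without Pxr-/- PCN replicate 5. Among all named genes, the 5 whose values over the 23 arrays were most like those of the brighter Gzmk probe were Ccl5 (Pearson r 0.925, Spearman rho 0.924), Cd8b1 (0.886, 0.829), Itgae (0.881, 0.899), Cd8a (0.879, 0.906) and Crtam (0.876, 0.876). Those most like Ccl5 were Nkg7 (0.970, 0.951), Cd3d (0.954, 0.928), Cd8a (0.950, 0.927), Cd3g (0.950, 0.923) and Itgae (0.949, 0.921). Itgae encodes the αE integrin that holds lymphocytes to epithelial E-cadherin, Crtam a receptor of activated CD8 T cells, and Cd3d and Cd3g chains of the T cell receptor complex. These correlations hold the group differences on which the genes were chosen, and within groups the Gzmk to Ccl5 value was 0.822 and that of Ccl5 to Nkg7 0.944.

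Related gene lists, also written with earlier results known, placed these values among other lymphocyte genes. Of 14 genes of the T cell receptor complex and its signalling, all 14 were higher in Pxr-/- than in WT mice without PCN (median 0.60, against 0.95 for the 13 member probes), with 2 called, among them the kinase Lck (0.66), and 13 were higher with PCN (median 0.22), with 0 called. Without Pxr-/- PCN replicate 5, 6 of the 14 were called without PCN, and the median with PCN was 0.39. Over all 37161 probes 0.0404% were called higher without PCN and 0.0619% with PCN. Without replicate 5, 113 and 190 of them were called in either direction. The summed level of the 14 genes ran from 13.39 to 13.74 in WT CONT, 13.68 to 13.80 in WT PCN, 13.93 to 14.29 in Pxr-/- CONT and 13.35 to 14.14 in Pxr-/- PCN on the log2 scale. Cd3e, a signalling chain of that complex, was higher by 0.48 and 0.21. All T cells carry this complex. Its genes were higher in Pxr-/- mice as the cytotoxic genes were, and their part in that difference was not tested. The 7 tested genes of intraepithelial lymphocyte homing and residence were all higher without PCN (median 0.39), with 1 called, Cd7 (0.82), and 6 were higher with PCN (median 0.23). Without replicate 5, 2 were called without PCN, and with PCN all 7 were higher (median 0.40). Itgae differed by 0.61 and 0.34. Without PCN 14 of 15 other granule and effector genes (median 0.37) and 6 of 8 NK cell receptor genes (median 0.16) were higher, with 0 called, and with PCN 12 (median 0.21) and 7 (median 0.14). Without replicate 5, 2 of the granule and effector genes were called without PCN and 1 with PCN (median 0.32). Ncr1, the NK receptor NKp46, had no probe in the table.

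Chemokines and interleukins guide and activate these cells. Of 7 genes of chemokine receptors and interferon-induced chemokines 6 were higher without PCN (median 0.34) and 5 with PCN (median 0.26), with 0 called. Of 8 genes of the IL-18, IL-12 and IL-15 axis 7 (median 0.08) and 6 (median 0.06) were higher, with 0 called. The medians do not describe 2 cytokine genes of that axis. Il15 differed by -0.50 (SE 0.160) without PCN and -0.60 (SE 0.168) with PCN. Il18 differed by 0.38 (SE 0.227) without PCN and -0.70 (SE 0.239) with PCN. Among 4 helper and regulatory T cell genes 3 were lower in Pxr-/- mice without PCN (median -0.05) and 4 with PCN (median -0.19). Cd4, the co-receptor of helper T cells, differed by -0.32 and -0.19, opposite in sign to Cd8a. The difference between the Cd4 and Cd8a values was not tested.

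With PCN, averaged over the genotypes, 11 of the 14 T cell receptor genes (median -0.12) and 5 of the 7 intraepithelial genes (median -0.14) were lower, with 0 called by limma. Without replicate 5 the medians were -0.05 and -0.09. Cd3e differed by -0.14 (adjusted p 0.449), Itgae by -0.17 (0.374) and Cd4 by 0.06 (0.749). By genotype, 11 of the 14 T cell receptor genes were higher with PCN in WT mice (median 0.10). In Pxr-/- mice 12 of them were lower (median -0.30, or -0.15 without replicate 5). None of the 14 was called in the interaction. Of the 7 intraepithelial genes, 4 were lower in WT mice (median -0.03) and 7 in Pxr-/- mice (median -0.17). In Pxr-/- mice Cd7 differed by -0.54 (adjusted p 0.0455), which stayed under the fold limit. The medians were 0.04 for 15 other granule and effector genes, -0.12 for 8 NK cell receptor genes, 0.03 for the chemokine and chemokine receptor genes, 0.08 for the interleukin axis and -0.02 for helper and regulatory T cells, each with 0 called. No gene of these lists passed both limits for PCN in either genotype.

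**Figure D4:**
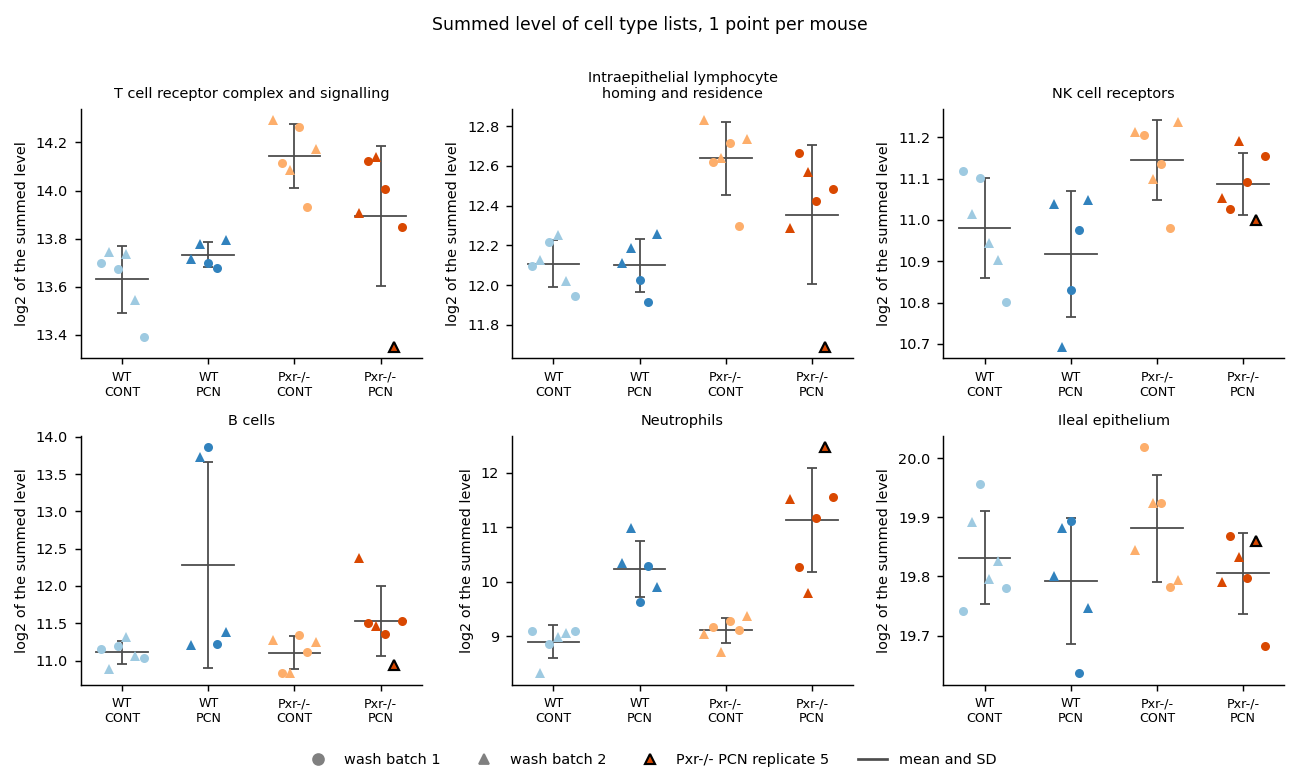
Each panel gives the summed level of a list of marker genes on the log2 scale (vertical axis, a scale of its own in each panel) for each mouse, with a line and bar for the mean and SD. The T cell receptor list reaches 13.74 in WT CONT and starts at 13.93 in Pxr-/- CONT, 2 WT PCN arrays stand high for B cells, and Pxr-/- PCN replicate 5 (outlined) is lowest of its group for T cell receptor genes and highest for neutrophils.

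Markers of other cells also moved between the groups. The summed level of 9 B cell genes lay between 10.89 and 11.31 in WT CONT and between 10.83 and 11.34 in Pxr-/- CONT, and was 11.21, 13.73, 13.86, 11.22 and 11.38 on the WT PCN arrays, against 10.94 to 12.37 in Pxr-/- PCN. The WT PCN replicates 2 and 3, with the high B cell level, were among the 3 lower arrays for Gzma, Gzmb and Nkg7, together with replicate 4, whose B cell level was not high. Not all members read so. Cd8b1 was highest of that group on replicate 3 (8.78), read 8.48 on replicate 2 and was lowest on replicate 1 (8.32). With PCN averaged over the genotypes all 9 B cell genes were higher (median 0.89), with 0 called by limma. With the mean of the B cell genes as a covariate no member was called between the genotypes with PCN, where 2 were without it. That count was also 0 without Pxr-/- PCN replicate 1 or 3 or WT PCN replicate 2, 3 or 4. The share of all probes called with the covariate is not reported here. The loss of the calls therefore cannot be read as a part of B cells. The part of B cells in the members' values was not tested.

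Averaged over the genotypes, PCN raised 2 of 5 mast cell genes and 3 of 5 neutrophil genes, beside 0.939% of all probes, and 2 of 5 each without Pxr-/- PCN replicate 5. The mast cell protease Mcpt1 rose by 1.78 (SE 0.259, limma adjusted p 0.000164), and S100a8 and S100a9, calcium-binding proteins of neutrophils, rose by 2.09 (SE 0.273, adjusted p 5.19e-05) and 2.53 (SE 0.318, adjusted p 3.25e-05). Mcpt2, another mast cell protease, and Cxcr2, a chemokine receptor of neutrophils, also passed, but were well above background on only 15 and 10 of the 23 arrays. Their part in the members' values was not tested. All 6 macrophage genes were higher (median 0.24) with 0 called, and the lysosomal gene Cd68 rose by 0.60 (limma adjusted p 0.00695) in Pxr-/- mice, a call that was lost without replicate 5. Plasma cell (3), dendritic cell (4) and epithelial (6) genes had medians of 0.00, 0.06 and -0.05 and 0 called. Epithelial summed levels ran from 19.64 to 20.02 over all arrays.

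On Pxr-/- PCN replicate 5 the low cytotoxic genes came with low genes of other lymphocyte lists, though to unlike extents. It was below the other 5 arrays of its group for 13 of 14 T cell receptor genes (summed level 13.35 against 13.85 to 14.14), 7 of 7 intraepithelial genes (11.69 against 12.29 to 12.67), 8 of 9 B cell genes (10.94 against 11.36 to 12.37) and 2 of 3 plasma cell genes (15.76 against 16.55 to 16.82). The summed level of the helper and regulatory T cell genes was not low (10.83, within 10.41 to 10.88). That sum is mostly Cd4, the brightest of them, and 2 of the 4 genes were below the other 5 arrays. The summed neutrophil (12.47 against 9.80 to 11.56), macrophage (13.87 against 13.62 to 13.84) and dendritic cell levels (16.09 against 15.62 to 15.89) of replicate 5 were the highest of the group. Of the 5 neutrophil genes, only 2 were well above background on all 23 arrays, and 1 was below the other 5 arrays of the group. The epithelial level of replicate 5, 19.86, lay within that of the others (19.68 to 19.87). Gzma read 12.81 there against 14.51 to 15.07, Gzmb 8.94 against 10.68 to 11.34 and Ccl5 13.03 against 14.47 to 14.97. Eomes, the exception among the 13 probes, read 5.18 against 5.13 to 5.65.

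The promoters of the members were read for 3 motifs of factors known in cytotoxic lymphocytes. Of the 10 genes 8 were matched in the RefSeq promoter table (build GRCm38.p6), and Ccl5 and Cd8b1 were not. The motifs, searched on both strands of the 250 bases before the start, were the T-box motif GGTGTGA bound by T-bet and Eomes, the RUNX motif TGTGGT and the interferon regulatory factor motif GAAANNGAA. The 4 promoters below are those of the granule genes with a match and a clear difference between the untreated genotypes, written 5′ to 3′ on the strand of the gene, with each match in capitals.
Gzmk, chr13:113180966-113181215, minus strand: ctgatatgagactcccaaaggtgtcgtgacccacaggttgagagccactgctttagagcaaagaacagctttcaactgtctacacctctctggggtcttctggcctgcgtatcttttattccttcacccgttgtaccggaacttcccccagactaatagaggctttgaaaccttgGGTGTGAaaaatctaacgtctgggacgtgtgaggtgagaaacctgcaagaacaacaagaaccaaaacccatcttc
Nkg7, chr7:43436888-43437137, plus strand: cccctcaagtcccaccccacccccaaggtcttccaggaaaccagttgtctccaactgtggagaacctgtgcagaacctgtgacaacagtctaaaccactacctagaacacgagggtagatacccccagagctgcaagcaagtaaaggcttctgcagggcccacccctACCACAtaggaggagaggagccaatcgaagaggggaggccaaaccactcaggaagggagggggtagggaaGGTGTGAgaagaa
Gzma, chr13:113100982-113101231, minus strand: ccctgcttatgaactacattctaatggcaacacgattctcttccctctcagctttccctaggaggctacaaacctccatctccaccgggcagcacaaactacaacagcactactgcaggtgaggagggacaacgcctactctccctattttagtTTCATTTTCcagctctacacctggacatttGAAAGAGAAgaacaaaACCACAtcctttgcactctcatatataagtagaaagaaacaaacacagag
Gzmb, chr14:56262335-56262584, minus strand: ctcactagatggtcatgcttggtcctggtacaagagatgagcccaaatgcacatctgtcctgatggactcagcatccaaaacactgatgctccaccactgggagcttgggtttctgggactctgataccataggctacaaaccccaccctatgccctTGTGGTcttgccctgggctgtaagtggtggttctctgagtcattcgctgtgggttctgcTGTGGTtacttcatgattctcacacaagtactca
The T-box motif was found in Gzmk, 75 bases before the start, and in Nkg7, 13 bases before it, and in 3.33% of all 32851 promoters. RUNX matches lay in Gzma, Gzmb (2), Nkg7 and Prf1, against 14.0% of all promoters, and interferon regulatory factor matches in Gzma (2) and Eomes, against 7.13%. No 2 matches overlapped. Il18bp and Cd8a held none of these letters in this window. Prf1, which differed by 0.12 and 0.01 between the genotypes, held a match as Gzma and Gzmb did. A match gives only the letters and shows no binding.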

How the data were processed

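Total RNA of the ileum (150 ng per mouse) was labelled with Cy3, hybridized and scanned by the authors with Agilent Feature Extraction 10.10.1.1, per the labels. The scanner files hold intensity, which is deposited as linear brightness per spot. The deposited table holds log2 values of 37161 probes, which the authors filtered on signal, corrected for wash batch and normalized with CrossNorm. The filter limit and the grouping used for CrossNorm are not given in the sources used here. All its columns hold the same set of values (median 8.02), and each correlated best with the scanner values of its own array (Spearman 0.9995 to 0.9997, slope 0.975 to 1.03). Differences between groups are therefore relative to the whole array. The number of arrays limits the precision.

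The log2 table was fitted in R 4.3.3 by limma 3.58.1 (data.table was version 1.17.8), over all 23 arrays, taking group (4 levels) and wash batch as factors, 2-sided, with Benjamini-Hochberg adjustment over all probes of a comparison. Calls needed more than 1.5-fold and an adjusted p up to 0.05, the limits of the study's methods. The procedure was tested on simulated data. Probe names came from the scanner files. Figures were drawn with Python 3.11.15 and matplotlib 3.10.9.

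All members were named with each probe. Of the lists of T cell receptor, granule and effector, NK, intraepithelial, chemokine, interleukin, helper and regulatory T, B, plasma, mast, macrophage, neutrophil, dendritic and epithelial genes, those with a called probe (at most 8 a list) and Cd3e, Cd4, Ncr1 and Itgae were named, as were the 5 genes most like Gzmk and Ccl5. Some genes that this rule takes in are not reported here. A list gene is represented by its brightest probe. The summed level of a list is the log2 of the sum of its genes' linear values. Members and lists were chosen with earlier results of these data known. Mice of a group are taken as replicates from the labels.

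Alternatives used the scanner values (quantile normalized, centred on the median, processed signal minus the 75th percentile, or normexp with an offset of 50), kept only probes well above background on at least 50% of the arrays of a group, dropped the wash batch term, blocked on the slide (8 slides, random-block correlation 0.0554) or on the replicate number, used only the groups compared, dropped the fold limit, added B cell genes as a covariate, or left out each array. Replicate numbers were checked for pairing. The authors' 23 arrays were all used.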

Additional observations from a re-analysis of the deposited data

Results flagged for a closer look

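Of 52 groups of 5 or 6 arrays examined, 1 for each probe and group, 7 held an array whose gap to its nearest neighbour took an unusually large share of the range of the group (Dixon's test at the 95% level). Chance gives about 1 in 20 groups. In 6 of the 7 the array was Pxr-/- PCN replicate 5. Its Gzma value was 12.81 with the nearest array at 14.51 (0.755 of the range), Gzmb was 8.94 against 10.68 (0.723) and Ccl5 was 13.03 against 14.47 (0.741). Nkg7 read 9.50 against 10.53 (0.722). Cd8a was 5.90 against 6.75 on probe A_52_P150547 (0.646) and 7.53 against 8.67 on probe A_52_P443334 (0.796). The remaining one was Nkg7 on Pxr-/- CONT replicate 5, at 10.79 against 11.04 (0.661 of the range). The 6 values of 1 array are not independent of each other, since most of its T cell and B cell genes were low together.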

How the results depend on the processing

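Dropping the fold limit and filtering dim probes changed no count of members called. For PCN averaged over the genotypes the count of 0 became 1 with arrays centred on the median (Il18bp A_52_P577384, -0.61, limma adjusted p 0.0486), and 0 to 2 with single arrays left out. For PCN in Pxr-/- mice it became 1 without the wash batch term (the same probe, adjusted p 0.0455 in limma) and 0 to 2 with single arrays left out, while for PCN in WT mice and for the interaction it was 0 under all alternatives. Between the genotypes without PCN the 4 probes became 2 with the processed signal, 9 with the slide as a fixed block and 5 as a random block, 5 without the wash batch term, 10 with only the groups compared, and 0 to 10 with single arrays left out. With PCN the 2 became 1 with normexp and quantile normalization, 1 with the slide as a fixed block, 0 with the B cell covariate, 0 with only the groups compared, and 0 to 8 with single arrays left out. The share of all probes called under each alternative is not reported here, so these counts are a description. The causes were not tested.

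With the replicate number as a block, 2 in place of 4 probes were called between the genotypes without PCN, and no other count moved. Equal numbers did not pair the samples. Their deviations correlated at -0.21 to 0.43 over the 4 comparisons, and at most 2 of 6 pairs exceeded 0.1.

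Between the genotypes with PCN, Gzma (-0.11), Gzmb (-0.04) and Prf1 (-0.13) were negative within wash batch 2, and Prf1, at 0.01 over all arrays, was also negative under 8 other alternatives, down to -0.047 without Pxr-/- PCN replicate 2. Averaged PCN differences were 0.039 for Cd8b1 and 0.036 for Prf1 within wash batch 1, and for Eomes 0.033 with arrays centred on the median, 0.089 with the processed signal and -0.043 to 0.028 with single arrays left out. The dimmer Gzmk probe, for PCN in Pxr-/- mice, ran from -0.28 to 0.016, the highest without replicate 5. Of values of single probes with no array left out, 17 moved by more than the spread between replicates. Dim probes gained most from the processed signal, where the dimmer Gzmk probe differed between the genotypes by 1.55 and 1.84 and Eomes by 1.82 and 1.66 without and with PCN. Background limits what can be read for both.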
